A study of Mus musculus with 36 samples.

Results

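Potassium channels let potassium leave or enter cells and so set the resting potential, end the action potential and limit how often a neuron fires. The pore-forming subunits fall into families that open on depolarisation (Kcna, Kcnb, Kcnc, Kcnd, Kcnq, Kcnh) or on intracellular calcium or sodium (Kcnma, Kcnn, Kcnt). Others pass current more readily inward than outward (Kcnj) or are open at rest as leak channels (Kcnk). Silent or auxiliary subunits change how these pores behave. In sensory neurons of the dorsal root ganglion (DRG), which holds the cell bodies of the fibres that carry touch and pain, lower potassium current after nerve damage is known as a source of hyperexcitability. The genes described here were those annotated as protein coding in GENCODE M21 with a symbol starting with Kcn and a mean of at least 1 CPM (reads of a gene scaled to a common library size) in at least 1 of the 8 groups of libraries. There were 82 such genes, of 94 protein-coding Kcn genes and 55487 genes in the deposited table.

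RNA was sequenced from DRG and dorsal spinal cord of mice of a knockout line and of wild type, in a study titled as one of female mice. The groups in each tissue were knockout after spared nerve injury (SNI, a partial injury of the sciatic nerve; 4 libraries), wild type after SNI (4 libraries), naive knockout (5 libraries) and naive wild type (5 libraries). The labels gave knockout as the genotype with no further allele, promoter or agent named, and strain, age and time after injury are not in the sources used here. No label says that libraries are of separate animals, so the p-values measure the spread between these libraries. No group was labelled as sham-operated. All naive libraries have names starting with A, B or C and all SNI libraries with E or F, and no label says what these letters mean. Nerve injury, surgery and any difference between these library series thus cannot be told apart in the comparisons of SNI with naive.

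The libraries held 21.34 to 27.27 M estimated reads each. The libraries A2 and A4 of naive DRG were titled wild type but carried the genotype knockout in the genotype field and in the column names of the table, which were followed. Nociceptor markers summed to 1822 to 3110 CPM over the DRG libraries and 61.1 to 115.9 CPM over those of cord, and astrocyte markers to 37.8 to 73.4 CPM in DRG and 3982 to 5814 CPM in cord. Among wild-type DRG libraries, E3 and F3 (SNI) and A3 and C1 (naive) held the lowest summed level of 8 neuron marker genes in their groups, 7931 and 7168 CPM in the SNI pair and 8360 and 7433 CPM in the naive pair. Their summed potassium channel RNA was also the lowest of their groups, so counts are given with and without them. In such bulk tissue, fewer cells of a type and less RNA per cell cannot be told apart.

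The genes nearest the limit were Kcnrg and Kcnh3, with 1.02 and 1.15 CPM in their highest group, on the inside, and Kcnj5 and Kcnq1, with 0.78 and 0.73 CPM, on the outside. Of the 82 genes, 66 reached 1 CPM in all 8 groups. Kcnk16 and Kcnh4 reached it only in the injured DRG groups, so that their inclusion required them to be higher there. They are described below with no weight given to their count, their rank or the p-values of their rise. Kcnrg reached it only in naive knockout cord, so its call there as higher than wild type carries no weight either. All 82 genes could be tested in DRG and 78 in cord, where Kcnj15, Kcnk16, Kcnk18 and Kcnn4 were too low.

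In naive wild-type DRG, levels per kilobase of exon were highest for Kcnab2, an auxiliary beta subunit of the Kcna channels, at 68.1 CPM per kilobase, and for Kcna2, a delayed rectifier of the axon next to the node of Ranvier, at 49.5 CPM per kilobase. Next came Kcnip2 at 39.8, Kcnip4 at 39.4 and Kcnd1 at 37.7 CPM per kilobase, the first pair being calcium-binding partners of the A-type Kcnd pores and the last such a pore. Among the 5 highest in naive wild-type cord were Kcnj10 at 221, Kcnab2 at 81.1, Kcna2 at 48.1 and Kcnk1 at 38.4 CPM per kilobase. Kcnj10 encodes the inward rectifier by which astrocytes and satellite glia take up potassium, and Kcnk1 a leak pore. Kcnab2 and Kcna2 were thus among the 5 highest in both tissues.

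**Figure D1:**
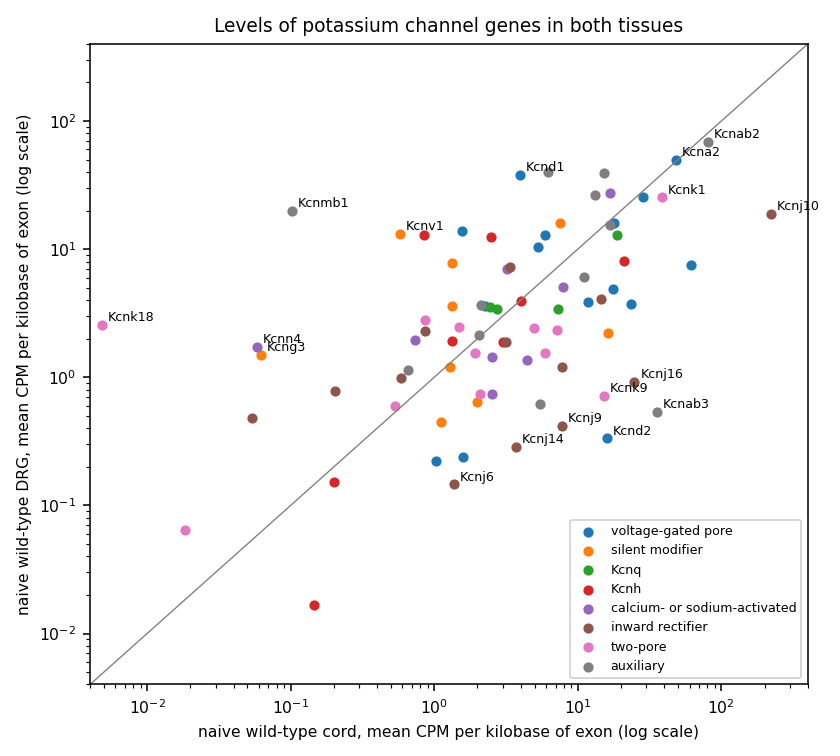
Each point is 1 of the potassium channel genes in the 8 named families, with its mean level in naive wild-type DRG (vertical, CPM per kilobase of exon, log scale) against naive wild-type cord (horizontal, same unit), 5 libraries each. The line marks equal levels; Kcnk18, Kcnmb1, Kcnn4, Kcng3 and Kcnv1 lie far above it, Kcnab3, Kcnd2, Kcnj16, Kcnk9 and Kcnj9 far below it.

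A large share of the potassium channel genes was lower in SNI than in naive DRG of both genotypes. In knockout DRG, 45 of 82 genes fell after SNI (54.88%) and 5 rose, against 13.3% of all genes tested that fell and 15.1% that rose. In wild-type DRG, 32 of 82 fell (39.02%) and 6 rose, against a background of 12.3% lower and 12.6% higher. The genes that rose included Kcnk16 and Kcnh4 in both genotypes. The median log2 fold change was -0.48 in knockout and -0.41 in wild type, where the medians over all 19496 genes tested were 0.01 in knockout and -0.01 in wild type. Fitted without A3, C1, E3 and F3, 49 fell and 7 rose in knockout, and 31 fell and 4 rose in wild type.

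All of the 32 genes that fell in wild-type DRG fell in knockout DRG too, which was 71.11% of the genes that fell there. The 13 that passed the test only in knockout were Kcnab2, Kcnc1, Kcnd1, Kcnd2, Kcng1, Kcnh2, Kcnj11, Kcnj14, Kcnj4, Kcnq5, Kcns1, Kcns2 and Kcnu1. Among these, Kcng1, Kcnj14 and Kcnu1 lost the call in knockout without 1 of several libraries, Kcng1 without B2, B4, C2, F2 or F4, Kcnj14 without A2, E2 or F2, and Kcnu1 without B2, B4, E2 or F2. A difference between genotypes in the response to injury was tested directly as the interaction, and 0 of 82 genes passed in DRG, where 0.0256% of all genes did. By edgeR 5 of the 82 (6.1%) had an unadjusted p under 0.05, beside 5.95% of all genes, and 0 passed after adjustment by DESeq2 or limma. Of the 82 genes, 30 passed in neither genotype, among them Kcna1, Kcnt2, Kcnk2 and Kcnj10.

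Summed over the 82 genes, potassium channel RNA amounted to 3450, 3474, 3381 and 3174 CPM in the 4 SNI knockout DRG libraries, against 4967, 4591, 4703, 4913 and 4968 CPM in the 5 naive ones. In wild type the sums were 3430, 2439, 3514 and 2706 CPM after SNI, against 4190, 3895, 4658, 4487 and 3597 CPM in naive libraries. Every SNI library of either genotype lay below every naive library, closely so for the wild-type library F1 and the naive library C1. In cord the sums ran from 5432 to 5572 CPM in SNI knockout and 5404 to 5732 CPM in naive knockout libraries, which overlapped. They ran from 5338 to 5475 CPM in SNI wild type and 5486 to 5857 CPM in naive wild type, narrowly apart.

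**Figure D2:**
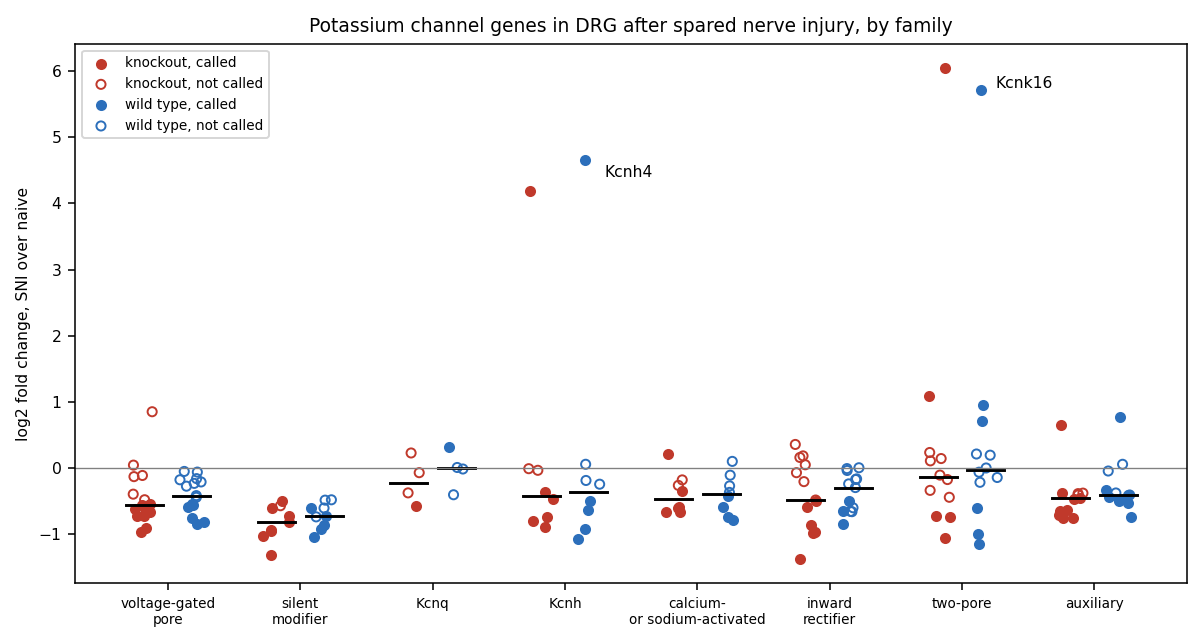
Each point is a potassium channel gene in DRG, with its log2 fold change of SNI over naive libraries on the vertical axis and its family on the horizontal axis, knockout left of wild type; filled points passed the test at an adjusted p under 0.05 and bars are family medians. Most points lie below 0 in every family except Kcnq and the two-pore genes, and Kcnk16 and Kcnh4 stand far above the rest. Kcnrg, which belongs to none of the families, is not drawn.

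Markers of other cells moved with injury in the same libraries. All 7 macrophage markers rose in both genotypes, with summed levels of 334 to 464.7 CPM in SNI knockout and 89.4 to 158.1 CPM in naive knockout DRG, and of 373.9 to 662.9 CPM in SNI wild type and 128.3 to 253.3 CPM in naive wild type. Of 8 neuron markers 5 fell and 1 rose in knockout, and 3 fell and 1 rose in wild type. The summed neuron levels were 8755 to 11050 CPM in SNI knockout, 10920 to 13610 CPM in naive knockout, 7168 to 10980 CPM in SNI wild type and 7433 to 10570 CPM in naive wild type. Of 5 markers of large sensory neurons 4 fell in knockout, and 2 fell and 1 rose in wild type, with sums of 1444 to 1840 CPM in SNI knockout, 2392 to 2980 CPM in naive knockout, 1384 to 1934 CPM in SNI wild type and 1954 to 2355 CPM in naive wild type. Of 6 nociceptor markers 4 fell in each genotype, with sums of 2092 to 2370 CPM in SNI knockout, 2912 to 3110 CPM in naive knockout, 1822 to 2135 CPM in SNI wild type and 2405 to 3110 CPM in naive wild type. None of these markers was at 0 in any DRG group. Their part in the fall of the potassium channel genes was not tested.

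Among the 15 voltage-gated pore genes, 9 fell in knockout DRG and 6 in wild-type DRG, and none rose in either. Kcnb2, a delayed rectifier, was at 115, 128, 131 and 142 CPM in SNI knockout libraries, against 186, 205, 193, 207 and 205 CPM in naive knockout libraries. In wild type Kcnb2 was at 114, 104, 123 and 132 CPM after SNI, against 210, 214, 212, 215 and 205 CPM in naive libraries. No SNI library reached any naive one in either genotype, and the log2 fold change was -0.63 ± 0.07 (SE, adjusted p = 1.22e-06) in knockout and -0.84 ± 0.07 (adjusted p = 3.43e-08) in wild type.

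Kcna2 was at 410, 423, 420 and 406 CPM in SNI knockout libraries, against 683, 673, 698, 694 and 683 CPM in naive knockout libraries. In wild type it was at 380, 250, 430 and 337 CPM after SNI, against 630, 528, 669, 631 and 491 CPM in naive libraries. The groups did not overlap in either genotype, and the wild-type libraries spread more widely, with E3 and F3 lowest after SNI and C1 and A3 lowest among the naive ones. The log2 fold change was -0.73 ± 0.12 (adjusted p = 1.04e-04) in knockout and -0.76 ± 0.12 (adjusted p = 7.59e-05) in wild type.

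Kcna4, a pore that inactivates quickly, fell by 0.66 (knockout) and 0.82 (wild type) on the log2 scale, with means of 12.01 ± 0.76 (SD, n = 4) and 18.9 ± 1.0 CPM (n = 5) in SNI and naive knockout and 9.83 ± 1.7 and 17.3 ± 2.0 CPM in SNI and naive wild type. Kcnd3, an A-type pore, fell by 0.55 in knockout (adjusted p = 0.00855) and by 0.54 in wild type (adjusted p = 0.0101).

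The A-type pore Kcnd2 was scarce in DRG, at 1.20 ± 0.26 CPM in SNI and 2.24 ± 0.38 CPM in naive knockout libraries (log2 fold change -0.90, adjusted p = 0.00108). Wild-type libraries had 1.28 ± 0.28 CPM after SNI and 1.71 ± 0.21 CPM in naive libraries (-0.42, adjusted p = 0.108). Kcnc1, a fast pore that supports rapid firing, had changes of -0.66 in knockout (adjusted p = 0.00807) and -0.18 in wild type (adjusted p = 0.518). Kcna1, which assembles with Kcna2 in axons, did not pass in either genotype, with -0.40 in knockout (adjusted p = 0.106) and -0.28 in wild type (adjusted p = 0.294).

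The silent modifiers, which form no channel alone but join Kcnb pores and change their gating, fell in 8 of 9 cases in knockout and 5 of 9 in wild type, and all 9 had a negative log2 fold change in both. Kcns3 was at 28.9, 26.2, 25.4 and 25.2 CPM in SNI knockout libraries, against 51.0, 48.7, 51.5, 50.1 and 54.1 CPM in naive knockout libraries. In wild type it was at 30.4, 20.9, 31.7 and 24.1 CPM after SNI, against 53.4, 51.4, 52.9, 50.8 and 46.7 CPM in naive libraries. The SNI libraries lay well under every naive one, with log2 fold changes of -0.95 ± 0.09 (adjusted p = 3.66e-07) in knockout and -0.93 ± 0.09 (adjusted p = 5.14e-07) in wild type.

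Kcnv1 lay at 48.3, 51.4, 46.6 and 54.1 CPM in SNI knockout libraries, against 73.6, 77.2, 75.8, 75.0 and 79.7 CPM in naive knockout libraries, and fell by 0.61 (adjusted p = 1.74e-06). In wild type it lay at 38.8, 41.4, 37.6 and 42.0 CPM after SNI, against 63.3, 58.7, 54.5, 70.0 and 56.9 CPM in naive libraries, and fell by 0.60 (adjusted p = 2.19e-06). No SNI library reached a naive one, and the knockout libraries were the higher in each injury state. Kcns1, a modifier for which human variants have been tied to chronic pain, fell by 1.02 in knockout (adjusted p = 0.00205) and had a change of -0.49 in wild type (adjusted p = 0.129).

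**Figure D3:**
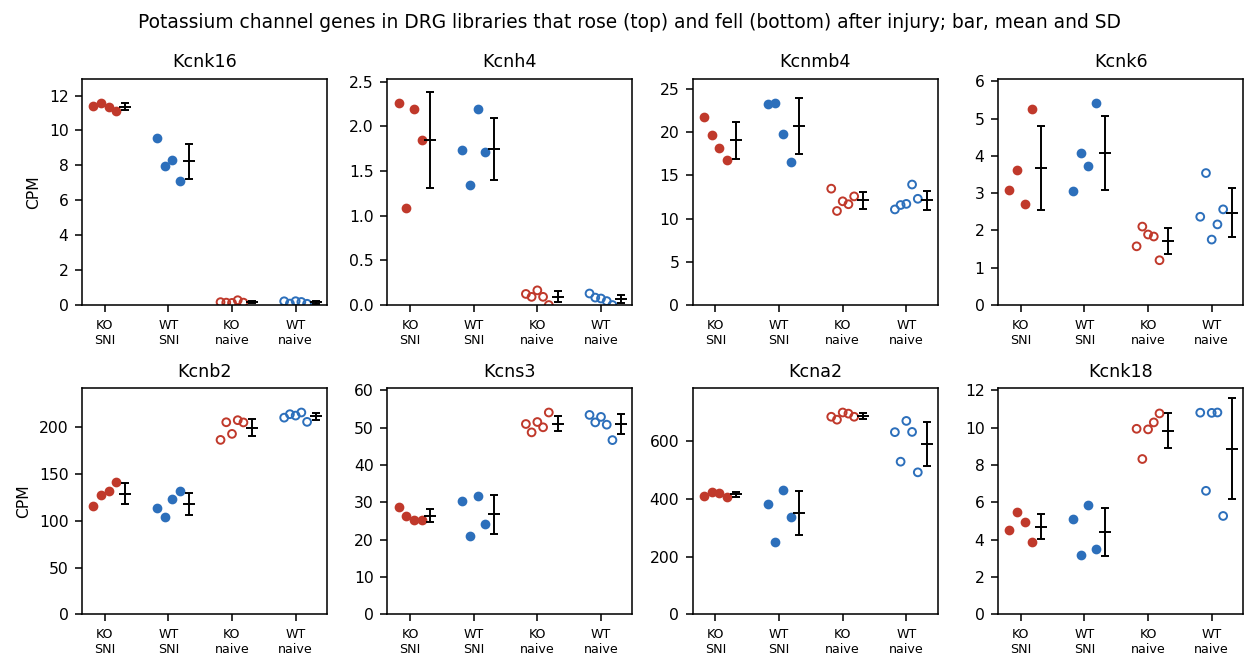
CPM of 8 potassium channel genes in each DRG library (vertical axis, starting at 0) by group (horizontal axis, KO knockout, WT wild type), with the group mean and SD beside the points; filled points are SNI libraries and open points naive ones. Kcnk16, Kcnh4 and Kcnmb4 show no overlap of SNI and naive libraries within a genotype in the upper row, and Kcnb2, Kcns3 and Kcna2 none in the lower row, while Kcnk18 overlaps in wild type.

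Of 4 Kcnq genes, whose channels carry the M current that holds back repetitive firing, 1 fell in knockout (Kcnq5) and none in wild type. Kcnq3 was at 72.3 ± 2.5 CPM in SNI and 61.8 ± 4.1 CPM in naive knockout (0.23, adjusted p = 0.147), and rose to 62.0 ± 13.2 CPM in SNI wild type against 49.8 ± 5.8 CPM in naive wild type (0.32, adjusted p = 0.0461). The Kcnq3 groups overlapped in wild type, and the call was lost with no filter, limma or only the 2 groups compared, without A2 and A4, and without any 1 of A1, A2, A3, C1, C2, E1 or F1 (adjusted p = 0.0508 to 0.144 where lost).

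Of 8 Kcnh genes, 5 fell in knockout and 4 in wild type. Kcnh7, an ether-a-go-go-related (erg) pore that returns the membrane to rest slowly, was at 67.0, 74.1, 80.9 and 85.0 CPM in SNI knockout libraries, against 123, 146, 131, 139 and 129 CPM in naive knockout libraries. The wild-type values were 86.9, 84.1, 87.2 and 103 CPM after SNI, against 170, 242, 165, 163 and 209 CPM in naive libraries. It fell by 0.80 in knockout (adjusted p = 2.20e-05) and by 1.07 in wild type (adjusted p = 7.96e-07), with no overlap. Exons of Kcnh7 share 696 bases with Gca on the other strand, and no source used here says whether the counting used strand. Kcnab1, Kcnip4, Kcnn1, Kcnma1 and Kcnk1 likewise share exon bases with a gene on the other strand. So do Kcnk2, Kcnd3, Kcnt2, Kcnq5, Kcnab3, Kcnj9, Kcnj15 and Kcng2, and further overlaps are given below with their genes. Kcnab2 shares 125 exon bases with Gm16334 on the same strand.

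Kcnh4, a pore of the elk subfamily that is best known from brain, went the other way. It was at 2.26, 1.09, 2.20 and 1.85 CPM in SNI knockout DRG, against 0.12, 0.09, 0.16, 0.09 and 0 CPM in naive knockout DRG. In wild-type DRG it was at 1.74, 1.35, 2.20 and 1.72 CPM after SNI, against 0.13, 0.08, 0.07, 0.04 and 0 CPM in naive libraries. In reads this was 24 to 54 per SNI library and 0 to 4 per naive library, with no overlap. The fitted log2 fold change was 4.19 ± 0.40 (adjusted p = 2.83e-07) in knockout and 4.66 ± 0.42 (adjusted p = 1.49e-07) in wild type. In cord, Kcnh4 gave 10 to 22 reads in every library of either injury state.

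Among channels gated by calcium or sodium, 5 of 8 fell in knockout and 4 of 8 in wild type. Kcnt1, a sodium-activated pore of large conductance, was at 159, 173, 189 and 164 CPM in SNI knockout libraries, against 247, 263, 253, 267 and 274 CPM in naive knockout libraries. In wild type it was at 167, 136, 167 and 150 CPM after SNI, against 273, 259, 273, 268 and 220 CPM in naive libraries. The groups stood apart in both genotypes, by -0.61 ± 0.08 (adjusted p = 7.88e-06) in knockout and -0.74 ± 0.08 (adjusted p = 8.57e-07) in wild type.

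Its relative Kcnt2 had changes of -0.26 in knockout (adjusted p = 0.164) and -0.37 in wild type (adjusted p = 0.0541). Kcnn1, a small-conductance calcium-activated pore that contributes to the afterhyperpolarisation, fell by 0.66 in knockout (adjusted p = 0.00152) and by 0.60 in wild type (adjusted p = 0.00375). Kcnma1, the pore of the large-conductance BK channel, was higher after SNI in knockout, at 104 ± 2 CPM against 89.7 ± 5.5 CPM in naive libraries (0.21, adjusted p = 0.0217). That call was lost with no filter (adjusted p = 0.0532), without A2 and A4 (adjusted p = 0.0878) and without A2 alone (adjusted p = 0.055). Wild-type libraries had 91.6 ± 7.9 CPM after SNI and 85.5 ± 5.8 CPM in naive libraries (0.10, adjusted p = 0.300).

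Of 13 inward rectifier genes, 6 fell in knockout and 3 in wild type. Kcnj3, a subunit of the G protein-gated channels through which opioid receptors silence neurons, was at 15.9, 15.7, 15.2 and 15.9 CPM in SNI knockout libraries, against 28.8, 25.4, 29.0, 27.8 and 31.4 CPM in naive knockout libraries. In wild type it was at 11.95, 9.68, 14.2 and 11.6 CPM after SNI, against 22.2, 17.9, 23.3, 25.0 and 18.8 CPM in naive libraries. The groups did not overlap, and the changes were -0.86 ± 0.10 in knockout (adjusted p = 4.64e-06) and -0.85 ± 0.11 in wild type (adjusted p = 6.53e-06). Exons of Kcnj3 share 1621 bases with the opposite-strand gene Gm26794. Kcnj10, the glial rectifier, did not pass, with -0.21 in knockout (adjusted p = 0.190) and -0.01 in wild type (adjusted p = 0.967).

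The 12 two-pore leak genes were divided, with 3 that fell and 2 that rose in knockout and 3 that fell and 3 that rose in wild type. Kcnk18, a leak pore enriched in sensory neurons whose human variants have been linked to migraine, was at 4.52, 5.47, 4.95 and 3.88 CPM in SNI knockout libraries, against 9.94, 8.32, 9.91, 10.3 and 10.8 CPM in naive knockout libraries. The wild-type values were 5.13, 3.17, 5.85 and 3.48 CPM after SNI, against 10.8, 6.62, 10.8, 10.8 and 5.27 CPM in naive libraries. Only the wild-type groups overlapped, through the naive library C1, and the changes were -1.06 ± 0.22 (adjusted p = 0.00106) in knockout and -1.001 ± 0.22 (adjusted p = 0.00195) in wild type. Kcnk9, an acid-sensitive leak pore, fell by 0.74 in knockout (adjusted p = 9.52e-04) and by 1.16 in wild type (adjusted p = 1.31e-05). Kcnk2, a stretch- and lipid-sensitive leak pore, did not pass, with -0.11 in knockout (adjusted p = 0.467) and -0.14 in wild type (adjusted p = 0.326).

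Kcnk16, a leak pore best known from insulin-secreting cells of the pancreas, had the largest change of the 82 genes in both genotypes. Since its inclusion required it to be higher in injured DRG, no weight is given to that rank. Kcnk16 was at 11.4, 11.6, 11.4 and 11.1 CPM in SNI knockout libraries, against 0.17, 0.14, 0.12, 0.28 and 0.14 CPM in naive knockout libraries. In wild type it was at 9.55, 7.95, 8.29 and 7.13 CPM after SNI, against 0.22, 0.08, 0.22, 0.18 and 0.07 CPM in naive libraries. In reads this was 166 to 267 per SNI library and 2 to 6 per naive library. The log2 fold change was 6.04 ± 0.19 (adjusted p = 3.33e-14) in knockout and 5.71 ± 0.19 (adjusted p = 1.12e-13) in wild type. In cord it stayed at 0 to 7 reads per library.

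The DNA next to both induced genes is shown because they moved together from near 0. The sequences are from RefSeq (GRCm38.p6), minus strand, 5′ to 3′, with each CG dinucleotide in capitals. Kcnk16 is the whole 250 bases before the annotated start, chr14:20269270-20269519, and Kcnh4 the 86 bases of its window that no GENCODE exon covers, chr11:100759943-100760028.
Kcnk16: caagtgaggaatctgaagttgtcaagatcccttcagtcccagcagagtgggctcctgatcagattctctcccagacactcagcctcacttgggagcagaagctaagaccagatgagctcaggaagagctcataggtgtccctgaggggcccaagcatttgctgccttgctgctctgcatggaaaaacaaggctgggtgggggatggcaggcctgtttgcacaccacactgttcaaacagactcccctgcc
Kcnh4: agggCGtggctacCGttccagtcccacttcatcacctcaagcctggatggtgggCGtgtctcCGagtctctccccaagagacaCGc
The Kcnk16 window held 0 CG dinucleotides, while the whole 250-base window of Kcnh4 held 20, against a median of 6 over all 32851 such windows and 8 over the 83 windows of 60 of the 82 genes.

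Of the motifs searched on both strands, the AP-1 site TGANTCA was in 3.61% of the 83 windows of potassium channel genes and 6.75% of all windows. The cAMP response element TGACGTCA was in 0% and 1.55% of these windows, and its core TGACG, which the full element contains, in 15.7% and 17.8%. The GC box GGGCGG was in 44.6% of the potassium channel windows and 32.7% of all windows, and TATAAA in 3.61% and 12.4%. The Kcnk16 window held none of these letters, and the Kcnh4 window held 1 GC box, in the stretch not shown.

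Of 12 auxiliary genes, 8 fell in knockout and 7 in wild type. Kcnip1, Kcnip2 and Kcnip4, the calcium-binding partners of Kcnd pores, fell in both genotypes. Kcnip4 was at 99.1 ± 5.3 CPM in SNI and 129 ± 9 CPM in naive knockout (-0.38, adjusted p = 3.22e-05), and at 103 ± 1 and 143 ± 4 CPM in SNI and naive wild type (-0.48, adjusted p = 2.46e-06). Kcnip2 fell by 0.64 in knockout (adjusted p = 5.33e-05) and by 0.74 in wild type (adjusted p = 1.19e-05). Kcnab2 fell by 0.76 in knockout (adjusted p = 0.0079) and had -0.41 in wild type (adjusted p = 0.151). Kcnmb1, a beta subunit of BK channels known from smooth muscle, fell by 0.75 in knockout (adjusted p = 1.37e-05) and by 0.41 in wild type (adjusted p = 0.00409).

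Kcnmb4, the neuronal BK beta subunit, rose in both genotypes. It was at 21.7, 19.7, 18.1 and 16.8 CPM in SNI knockout libraries, against 13.5, 10.9, 12, 11.7 and 12.6 CPM in naive knockout libraries (0.65 ± 0.10, adjusted p = 9.61e-05). Wild-type libraries had 23.2, 23.4, 19.8 and 16.5 CPM after SNI, against 11.1, 11.6, 11.7, 13.9 and 12.3 CPM in naive libraries (0.78 ± 0.10, adjusted p = 1.48e-05). All SNI libraries lay above all naive ones. Kcnmb4 shares exon bases with Kcnmb4os1 and Kcnmb4os2 on the other strand, 355 and 693 in number.

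Of 26 tested partners of potassium channels that carry no Kcn symbol, 15 fell and none rose in knockout DRG after SNI, and 10 fell and 1 rose in wild type. Dpp10 and Dpp6, which traffic Kcnd pores, fell by 0.74 and 0.59 in knockout and by 0.84 and 0.51 in wild type, and Cntnap2, which holds Kcna channels beside the node of Ranvier, fell by 0.63 in knockout and by 0.62 in wild type. Of 18 regulators of transcription and chromatin linked to these genes, 3 rose and 3 fell in knockout, and 1 rose and 2 fell in wild type, shares near or under the 15.1% higher and 13.3% lower of all genes in knockout and the 12.6% and 12.3% in wild type.

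In dorsal spinal cord, few potassium channel genes passed the test after injury. In knockout cord 1 of 78 rose (1.282%) and 2 fell (2.564%) after SNI, against a background of 3.79% higher and 0.626% lower. In wild-type cord 1 rose (1.282%) and 3 fell (3.846%), against 2.61% and 0.271%. By edgeR 21.8% of the 78 had an unadjusted p under 0.05 in knockout, beside 14.5% of all genes. In wild type 23.1% did, beside 11.1% of all genes. The 1 that rose was Kcnk6 in both genotypes, and no gene fell in both. For the interaction in cord 0 of 78 passed, as did 0 (0%) of all genes, while 8 of the 78 (10.3%) had an unadjusted p under 0.05 by edgeR, beside 6.1% of all genes, and 0 passed by DESeq2 or limma.

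Kcnk6 encodes a leak pore known in macrophages for the potassium efflux that triggers the inflammasome. It was at 6.37, 5.25, 6.09 and 5.48 CPM in SNI knockout cord, against 2.52, 3.08, 2.41, 2.73 and 2.19 CPM in naive knockout cord (1.16 ± 0.12, adjusted p = 2.87e-07). In wild-type cord it was at 6.004, 5.26, 4.92 and 5.84 CPM after SNI, against 2.25, 1.74, 2.61, 2.18 and 2.35 CPM in naive libraries (1.30 ± 0.12, adjusted p = 7.90e-08). Every SNI library exceeded every naive library of both genotypes.

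In DRG the same gene was at 3.07, 3.62, 2.71 and 5.27 CPM in SNI knockout, against 1.57, 2.10, 1.89, 1.84 and 1.20 CPM in naive knockout libraries (1.09 ± 0.23, adjusted p = 0.00151). In wild-type DRG it was at 3.06, 4.08, 3.74 and 5.41 CPM after SNI, against 2.37, 3.54, 1.76, 2.16 and 2.57 CPM in naive libraries (0.72 ± 0.22, adjusted p = 0.0229). The wild-type groups overlapped through the naive library A3, and the call was lost without A3, C1, E3 and F3 (0.71, adjusted p = 0.0604), without B1 or F3 alone, and with only the 2 groups compared. In cord, 6 of 7 macrophage markers rose in both genotypes, with sums of 341.3 to 354.9 CPM in SNI and 130.2 to 158 CPM in naive knockout and of 343.1 to 381.6 CPM in SNI and 155.1 to 185.6 CPM in naive wild type. Of 5 microglia markers, 5 rose in knockout cord and 4 in wild-type cord, and the part of either list in the rise of Kcnk6 was not tested.

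The falls in cord were small. In wild-type cord Kcnab2 fell by 0.18 (adjusted p = 0.0327) and Kcnab1, also a beta subunit, by 0.18 (adjusted p = 0.0335). In knockout cord Kcnip2 fell by 0.23 (adjusted p = 0.0424). Each of these named falls lost its call when at least 1 library was left out. Of the 3 genes that fell in wild-type cord, 1 kept its call without each library in turn. Without 1 library at a time the number that fell ranged in knockout from 0 (without A6, B8 or E6) to 5 (without B6) and in wild type from 1 (without A6, A8, B5, B7, E7 or F7) to 5 (without A5).

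Before any injury, potassium channel genes in DRG differed between knockout and wild type about as often as all genes did. By edgeR 40.2% of the 82 had an unadjusted p under 0.05, beside 42.7% of all genes. In naive DRG 16 of 82 genes were higher in knockout and 6 were lower, against a background of 12.8% higher and 15.4% lower, and the median log2 fold change was 0.16, beside -0.02 over all genes. The higher share of 19.51% exceeded the background and the lower share of 7.317% was under it. Without A2 and A4, 8 were higher and 2 lower; without A3, C1, E3 and F3, 11 were higher and 4 lower. Leaving out A2, A3 or C1 alone left 9 higher and 13 of the 22 calls in each case. The shares of all genes in these fits are not given here.

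The voltage-gated pores that were higher in naive knockout DRG included Kcna1 and Kcnc1. Kcnc1 was at 70.8, 47.0, 58.5, 58.9 and 63.1 CPM in naive knockout libraries, against 34.0, 30.3, 43.3, 39.4 and 29.4 CPM in naive wild-type libraries. Its log2 fold change of 0.76 ± 0.16 (adjusted p = 0.0042) came with no overlap between the groups. Kcna1 was higher by 0.54 (adjusted p = 0.0244), a call lost without A2, A3 or C1.

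Kcnv1 had the lowest adjusted p, with naive knockout libraries above all naive wild-type ones (0.33 ± 0.06, adjusted p = 0.00169; values above). Kcnj3 was higher by 0.41 (adjusted p = 0.00619), Kcnk1 and Kcnk4, both leak pores, by 0.44 (adjusted p = 0.00477) and 0.40 (adjusted p = 0.00907), and Kcnip3, a Kcnd partner that also acts as a transcriptional repressor, by 0.52 (adjusted p = 0.00716). Kcnk4 shares 587 exon bases with Catsperz on the same strand. Kcnq3 was higher by 0.31 (adjusted p = 0.0376). Kcnab2 was higher by 0.63 (adjusted p = 0.0208), Kcns1 by 0.60 (adjusted p = 0.0392) and Kcnj10 by 0.33 (adjusted p = 0.0296), each with overlapping groups. Like that of Kcna1, the calls of Kcnq3, Kcnab2, Kcns1 and Kcnj10 were lost without any 1 of A2, A3 or C1. Those of Kcnq3, Kcns1 and Kcnj10 were also lost without C2. Those of Kcnq3 and Kcns1 were lost without B4 too, and that of Kcns1 without A1 or B2. The call of Kcnk4 was lost without A2 and A4 together.

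The 6 lower genes in naive knockout DRG were Kcnh7 (-0.51, adjusted p = 0.00263), Kcnj16 (-1.22, adjusted p = 0.00287), Kcnj8 (-0.78, adjusted p = 0.00906), Kcng3 (-0.51, adjusted p = 0.0163), Kcnip4 (-0.15, adjusted p = 0.037) and Kcnh5 (-0.35, adjusted p = 0.0447). The calls of Kcnip4 and Kcnh5 were lost without any 1 of A1, A2, A3, B2, B3, B4, C1 or F2. That of Kcnh5 was also lost without any 1 of C2, E2, E4, F1 or F4. The calls of Kcnj8 and Kcng3 were lost without A2 and A4 together. Kcnj8 is the ATP-sensitive pore of vascular mural cells. In the same comparison 5 of 8 neuron markers were higher in knockout. Of 5 markers of large sensory neurons 2 were higher and 2 lower, and of 6 nociceptor markers 0 were higher and 0 lower. Lower in knockout were 5 of 5 blood markers, 5 of 7 macrophage markers, 3 of 3 fibroblast markers, 3 of 5 endothelial markers and 1 of 4 mural markers. The mural markers summed to 131.8 to 161.5 CPM in naive knockout and 164.4 to 199 CPM in naive wild type, and the fibroblast markers to 1050 to 1368 CPM in naive knockout and 1383 to 2426 CPM in naive wild type. The endothelial markers summed to 66.5 to 71.8 CPM in naive knockout and 74.5 to 89.3 CPM in naive wild type. None of these 3 sums overlapped between genotypes. The neuron sums did not overlap either, at 10920 to 13610 CPM in naive knockout and 7433 to 10570 CPM in naive wild type. Nor did the blood sums, at 190.8 to 609.6 CPM in naive knockout and 736.9 to 3540 CPM in naive wild type. The part of these lists in the lower and higher genes was not tested. Of the 26 channel partners, 12 were higher and 2 lower. Not passing were Kcna2 (0.22, adjusted p = 0.13), Kcnb2 (-0.09, adjusted p = 0.315), Kcnd2 (0.39, adjusted p = 0.0809), Kcnk2 (-0.23, adjusted p = 0.0656) and Kcnk18 (0.15, adjusted p = 0.565).

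After SNI, 2 of 82 genes were higher and 3 lower in knockout DRG, against a background of 2.39% and 2.71%, so both shares were near those of all genes. Kcnv1 (0.33, adjusted p = 0.0101) and Kcnj3 (0.41, adjusted p = 0.0418) were higher, and Kcnmb1 (-0.46, adjusted p = 0.014), Kcnip1 (-0.33, adjusted p = 0.0149) and Kcnj16 (-1.01, adjusted p = 0.0446) were lower. Kcnmb1 was at 43.1, 48.3, 40.4 and 48.8 CPM in SNI knockout libraries, against 69.2, 55.8, 57.2 and 65.8 CPM in SNI wild-type libraries, without overlap. Of the 5 calls, that of Kcnip1 stood without each library in turn. Among single libraries, that of Kcnmb1 was lost only without F2 and that of Kcnv1 only without F4. Without any 1 of A1, A2, B2, B4, E2, E3, E4, F2, F3 or F4, both Kcnj16 and Kcnj3 lost their calls. Kcnj16 also lost its call without B1, and Kcnj3 without E1. The number higher ranged from 0 without F4 to 6 without F1, and the number lower from 1 without F2 to 4.

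In naive cord 8 of 78 genes were higher and 10 lower in knockout, against a background of 9.79% and 9.94%, shares close to those of all genes. Without A5 the number higher in naive cord was 4, and without A6 and B6 in turn the number lower was 5 and 6. After SNI 2 were higher and 2 lower, against 2.95% and 3.31%, and leaving out A8, B5, E5, E8, F7 or F8 left 1 higher, Kcna1. Kcnj16, an inward rectifier that joins Kcnj10 in glia and makes its channels sensitive to acid, was lower in knockout in all 4 comparisons of genotype. The call of Kcnj16 in SNI DRG was lost without many single libraries, as given above. In naive cord it was at 56.7, 55.1, 53.7, 63.6 and 52.6 CPM in knockout, against 111, 81.3, 99.5, 83.4 and 114 CPM in wild type (-0.79 ± 0.08, adjusted p = 7.70e-06). In SNI cord it was at 59.5, 64.7, 57.3 and 60.7 CPM in knockout, against 102, 94.3, 96.9 and 102 CPM in wild type (-0.71 ± 0.09, adjusted p = 1.46e-04). No knockout cord library reached a wild-type one of the same injury state.

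In DRG, where Kcnj16 is low, it was at 1.53, 1.19, 1.19, 1.61 and 2.17 CPM in naive knockout, against 3.70, 3.04, 3.73, 5.30 and 2.24 CPM in naive wild type. In SNI DRG it was at 1.11, 1.49, 1.87 and 1.90 CPM in knockout, against 1.86, 3.69, 3.01 and 4.25 CPM in wild type. The SNI groups overlapped through the wild-type library E1, and without A3, C1, E3 and F3 the change after SNI was -0.62 (adjusted p = 0.337). Its partner Kcnj10 was lower by 0.13 in naive knockout cord (adjusted p = 0.017).

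Kcnip1 was lower in knockout in both cord states and in SNI DRG. In SNI cord it was at 61.0, 58.7, 58.9 and 56.4 CPM in knockout, against 67.8, 69.1, 67.9 and 67.7 CPM in wild type (-0.21 ± 0.04, adjusted p = 0.00219). In naive cord it was at 61.6, 59.5, 62.4, 59.7 and 64.5 CPM in knockout, against 69.9, 64.4, 72.4, 66.1 and 71.6 CPM in wild type (-0.16 ± 0.04, adjusted p = 0.00378). The groups were separate after SNI and overlapped narrowly in naive cord. In SNI DRG it was at 21.6, 21.4, 19.9 and 19.9 CPM in knockout, against 26.2, 27, 28.1 and 22.6 CPM in wild type, again without overlap.

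Kcnt1 was at 205, 180, 205, 188 and 189 CPM in naive knockout cord, against 161, 152, 163, 160 and 154 CPM in naive wild-type cord (0.29 ± 0.04, adjusted p = 2.76e-05). The groups did not overlap. Kcnma1 was higher by 0.18 (adjusted p = 0.00204) and Kcng3, at 0.56, 0.72, 0.50, 0.48 and 0.71 CPM in knockout against 0.17, 0.36, 0.18, 0.20 and 0.13 CPM in wild type, by 1.495 (adjusted p = 0.00298). Kcna1 was higher in SNI knockout cord, at 144 ± 5 CPM against 120 ± 3 CPM in SNI wild type (0.27, adjusted p = 0.00333). Kcng2 was lower in naive knockout cord (-0.42, adjusted p = 0.014).

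**Figure D4:**
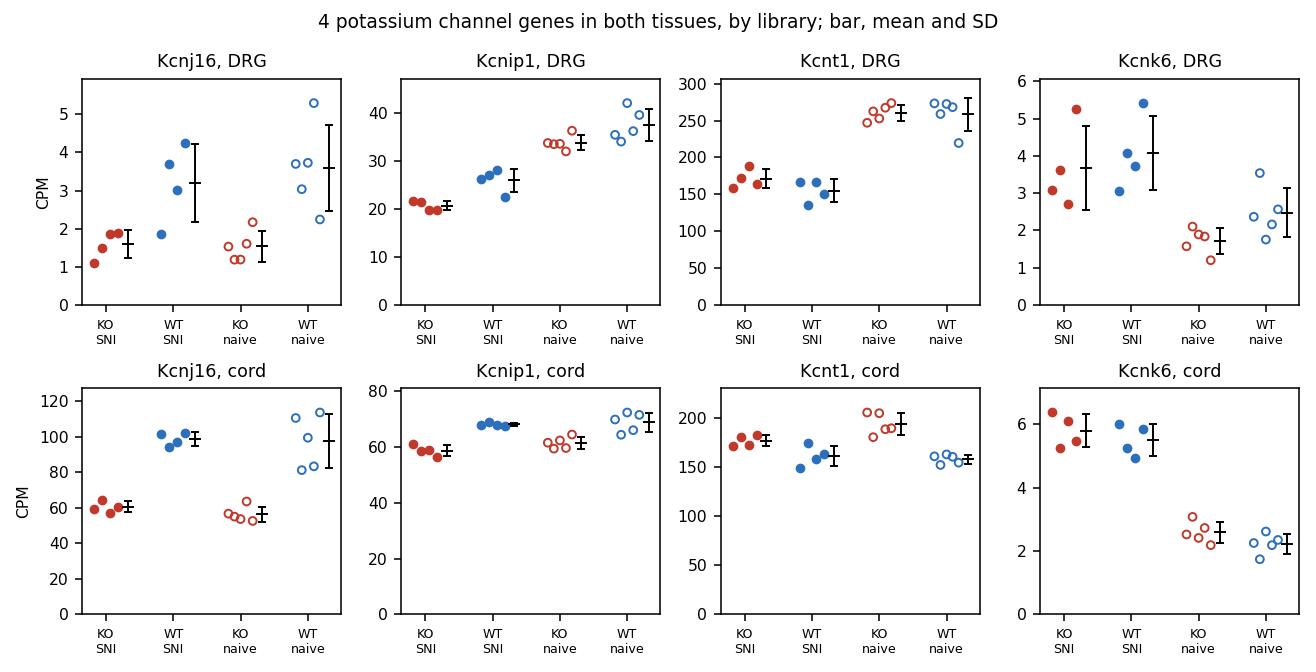
CPM of Kcnj16, Kcnip1, Kcnt1 and Kcnk6 in each library of DRG (upper row) and cord (lower row), vertical axes starting at 0, with groups on the horizontal axis (KO knockout, WT wild type), means and SDs beside the points, filled points for SNI and open points for naive libraries. Knockout points of Kcnj16 lie lower in both tissues, and SNI points of Kcnk6 higher.

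Few genes differed by genotype in the same direction in both naive tissues, among them Kcnj16, which was lower in knockout in DRG and in cord. Kcnab2 and Kcnj10 were among those higher in knockout DRG and lower in knockout cord, and Kcng3 and Kcnh5 were lower in knockout DRG and higher in knockout cord. In cord the calls of Kcnab2, Kcnj10 and Kcnh5 were each lost without at least 1 library, A6 among them for all 3. The difference between tissues in the effect of genotype was not tested.

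**Figure D5:**
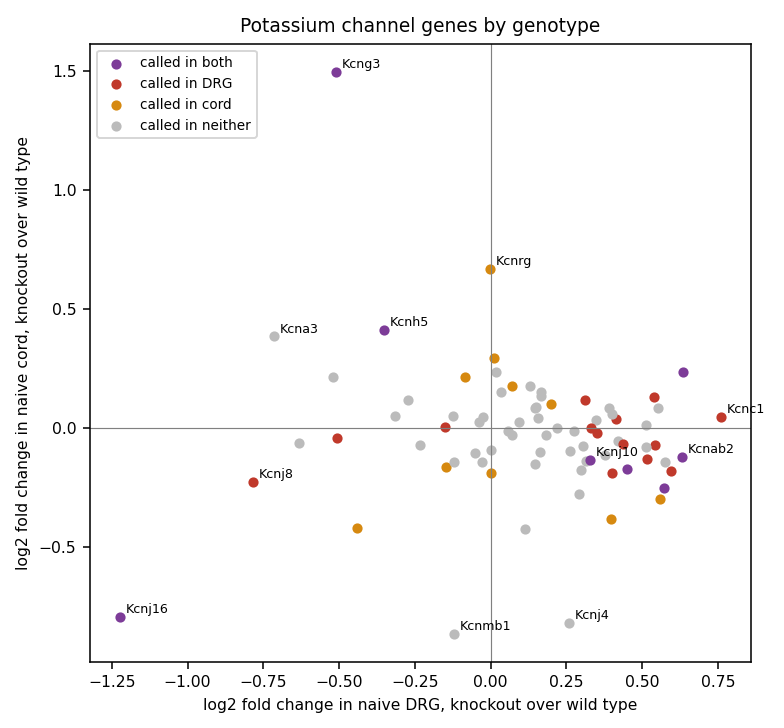
Each point is a potassium channel gene tested in both tissues, with its log2 fold change of knockout over wild type in naive DRG (horizontal axis) and in naive cord (vertical axis); colours mark where the gene passed the test. Kcnj16 lies at the lower left, at -1.22 and -0.79, and Kcng3 at the upper left, at -0.51 and 1.495.

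The comparison of tissues gave the most calls, as it did over all genes. Between naive wild-type DRG and cord, 33 of 81 genes were higher in DRG and 40 lower, against a background of 39.2% higher and 37.6% lower of all genes. Kcnk18, Kcnmb1, Kcng3, Kcnj15 and Kcnn4 reached 1 CPM only in the DRG groups, and some other genes only in the cord groups. Their inclusion required them to be higher in that tissue, so no weight is given to their calls or to the counts that hold them. Kcnk18 averaged 2.55 CPM per kilobase in DRG and 0.00483 CPM per kilobase in cord (log2 fold change 8.54), and Kcnmb1 averaged 19.7 CPM per kilobase in DRG and 0.103 CPM per kilobase in cord (7.47). Kcnv1 (4.43) and Kcnb2 (3.06) were also among the DRG-high genes. In the other direction stood Kcnab3, a beta subunit (-6.12), Kcnd2 (-5.67), Kcnk9 (-4.52), Kcnj9, a G protein-gated subunit (-4.31), and Kcnj10 (-3.64). Scaling by library size alone moved the median of all genes in this comparison by 0.11, so these changes are relative to that shift.

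Some of the DRG-high genes, such as Kcnk18, Kcnmb1, Kcnv1, Kcnb2 and Kcng3, fell in DRG after injury in both genotypes. Of all 82 genes, 54.88% fell in knockout and 39.02% in wild type. Other DRG-high genes did not fall: Kcnmb4 rose in both genotypes, and Kcnk4, Kcnj8, Kcnj15 and Kcnn4 passed in neither. Kcnd2 and Kcnk9, high in cord, also fell in DRG from low levels, Kcnd2 with a call in knockout only. Whether DRG-high genes fell more often than the others was not tested. The fall of Kcng3 in knockout lost its call without B4, E2, E4 or F4.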

How the data were processed

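RNA of DRG and dorsal spinal cord was made into stranded mRNA libraries (TruSeq), per the labels' protocols. The submitters' processing notes name GRCm38 as the build and list FastQC 0.11.5, HISAT2 and RSEM, with no order, settings or use of strand. The authors deposited 1 table of expected counts (reads per gene as estimated by RSEM) and 1 of signal values, in which each column of counts was multiplied by 1 TMM factor. In the deposited count table the column of library E1 was of the unit other: 9150 cells had decimal commas, read as points, and 1 damaged cell was restored from the normalised table.

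Expected counts were rounded. The main test was that of edgeR 4.0.16 (R 4.3.3), run in DRG and cord separately (TMM, filterByExpr, robust quasi-likelihood F test; 18 libraries, 4 groups, 14 residual degrees of freedom), and the tissues were compared on the 10 naive wild-type libraries. A gene passed where its p, adjusted over the whole table by Benjamini-Hochberg, was under 0.05, and the counts were read beside the share of all genes called. Standard errors were the log2 fold change over the square root of F. CPM used TMM library sizes, and levels per kilobase the GENCODE M21 exon length. Intervals from counting are not given, since replicate libraries carry the error. The deleted gene and some potassium channel genes are not reported here by name; those channel genes stay in the counts, sums and plots.

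Potassium channel genes named with values were the 10 lowest adjusted p in each direction per DRG comparison (5 in cord), 23 always named, and the 5 highest per kilobase in each tissue; other names complete a count or a list of calls, or follow up a pattern, and were chosen after their values were seen. The genes, gene lists and this rule were chosen with earlier results of these data known. Alternatives were DESeq2 1.42.0, limma 3.58.1 on log2(deposited value + 1), other scaling, no filter, only the 2 groups compared, leaving out libraries, and blocks by column number. Genes whose exons overlap another gene could not be separated by strand here.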

Additional observations from a re-analysis of the deposited data

Results flagged for a closer look

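Libraries far from the others of their group were looked for among genes described above, in 88 pairs of a gene and a group, and 5 were found, where chance flags about 1 in 20 groups. Kcnk16 in naive knockout DRG was at 0.28 CPM (0.2755) in library B4, above the next at 0.17 CPM. Kcnt1 in naive wild-type DRG was at 219.6 CPM in library C1, below the next at 258.9 CPM. Kcnh7 in wild-type DRG after SNI was at 102.6 CPM in library F3, above the next at 87.2 CPM. Kcnip1 in wild-type cord after SNI was at 69.14 CPM in library E7, above the next at 67.9 CPM. Kcng3 in knockout cord after SNI was at 0.8336 CPM in library F8, above the next at 0.36 CPM.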

How the results depend on the processing

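Over all alternatives, 79 of 108 calls of named genes were never lost, and 0 were reversed; 2371 of 2557 recomputed values kept the direction and the side of the threshold. Counts of potassium channel genes moved by over 1.5 times in these cases, where the cause was not tested. For knockout against wild type in naive DRG, 8 were higher and 2 lower without A2 and A4, and 9 to 22 were higher leaving out 1 library. In SNI DRG 1 was higher with library size only, with no filter, without A2 and A4, and without A3, C1, E3 and F3 (an alternative chosen after seeing the data), and leaving out 1 library gave 0 to 6 higher and 1 to 4 lower. In cord after SNI, 6 fell in wild type with DESeq2, and 1 fell in knockout with library size only, no filter or only the 2 groups compared; leaving out 1 library gave 1 to 5 in wild type and 0 to 5 in knockout. For genotype in naive cord 5 were higher with no filter, and leaving out 1 library gave 4 to 12 higher and 5 to 13 lower. In SNI cord 1 was higher with library size only or limma, and leaving out 1 library gave 1 to 3. Counts of the injury comparisons in DRG and of the tissue comparison stayed within 1.5 times.

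Same-numbered knockout and wild-type libraries share only a number: deviations from the group means correlated at -0.202 to 0.401. With that number as a replicate block, added after seeing the data, genotype in naive cord had 4 higher and 5 lower, and in SNI cord 6 higher; in SNI DRG Kcnip1 (adjusted p = 0.0527) and Kcnj3 (adjusted p = 0.0812) were no longer called, with 3 others gained. The 4 or 5 libraries per group limit how small a change passes the test, and at a few reads per library, as for Kcnk16 and Kcnh4 in naive DRG, the fitted fold change depends on the prior count.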
